A study of Mus musculus with 9 samples.

Results

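BAF complexes are the mammalian SWI/SNF chromatin remodelers, and 10 genes for their subunits were followed here in the frontal cortex of mice without Neat1. They were taken by name and not by a cutoff on a measured value, but with earlier results of these data known. They are the ATPases Smarca4 and Smarca2, the scaffold subunits Smarcb1, Smarcc1 and Smarcc2, the D subunits Smarcd1 and Smarcd3, the ARID subunits Arid1a and Arid1b, and the actin-related subunit Actl6b. All 10 were among the 43629 genes counted, and all 10 passed the filter on low counts that left 19753 genes for testing.

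A BAF complex uses the energy of ATP to slide or evict nucleosomes and so opens DNA to transcription factors. Each complex holds either Smarca4 (BRG1) or Smarca2 (BRM) as its motor, and most other positions are likewise filled by alternative paralogs, so that the makeup of the complex differs between cell types. As neural progenitors leave the cell cycle, Actl6a, Phf10 and Ss18 give way to Actl6b, Dpf1 or Dpf3, and Ss18l1, which make up the neuronal form. In the oligodendrocyte (OLG) lineage BRG1 is known to work with the transcription factor Olig2 during differentiation.

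RNA was sequenced after ribosomal RNA depletion from frontal cortex of 4 Neat1-/- mice (replicates 1, 3, 4 and 5) and 5 wild-type (WT) mice (replicates 1 to 5), all female C57BL/6. The Neat1-/- mice were 3, 3, 4 and 2 months old and the WT mice 2, 2, 3, 4 and 4 months old, in the order of their replicate numbers. The knockout is constitutive: a lacZ cassette with polyadenylation signals was placed just behind the Neat1 start site to end its transcript early. Neat1 itself, a nuclear noncoding RNA that builds paraspeckles, stood at 7.38, 7.11, 8.36 and 9.72 CPM (counts scaled to library size with TMM factors) in Neat1-/- mice, against 60.8, 83.2, 119.9, 68.1 and 75.3 CPM in WT mice (edgeR, log2 fold change -3.33, adjusted p = 1.27e-06).

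Libraries held 52629603 to 64648856 counts in Neat1-/- mice and 51276067 to 62819932 counts in WT mice, which gave every BAF subunit gene at least 1382 counts in every library. WT replicates 3 and 4 stood apart from the other libraries on the first principal component, with 0.234% and 0.212% of their counts on genes annotated as sense-intronic or provisional (TEC), against at most 0.136% in any other library. The 8 neuron markers, which the labelled tissue should hold, were all detected and summed to 7186 to 7627 CPM in Neat1-/- mice and 7049 to 7376 CPM in WT mice, led by Snap25 of the synaptic vesicle fusion machinery (2943 CPM in Neat1-/- mice and 2888 CPM in WT mice on average). Choroid plexus and ependymal markers summed to 114 CPM in WT replicate 3 and to between 17.4 and 28.7 CPM in the other 8 libraries. Meningeal fibroblast markers summed to 176 and 220 CPM in WT replicates 1 and 2 and to 25.4 CPM in WT replicate 4. In the remaining libraries they summed to between 63.6 and 94.5 CPM. Because whole tissue was sequenced, fewer cells of a type and less RNA per cell cannot be told apart.

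The start-site sequences of 3 of the genes are printed as description, and no mRNA result below uses them. Smarca4 and Smarcd3 had the smallest p-values of the 10 genes, and Actl6b is the neuron-restricted subunit. Each is the 250 bases before the RefSeq start site, 5′ to 3′ on the gene's own strand (GRCm38.p6), with GC boxes (GGGCGG or its reverse complement CCGCCC) in capitals. The windows lie at chr9:21615919-21616168 on the plus strand (Smarca4), chr5:24602003-24602252 on the minus strand (Smarcd3) and chr5:137553296-137553545 on the plus strand (Actl6b). The Smarcd3 and Actl6b windows belong to starts inside the annotated spans of these genes, which have 9 annotated transcripts each. The Actl6b window runs into its gene, which is annotated from chr5:137553517.
Smarca4: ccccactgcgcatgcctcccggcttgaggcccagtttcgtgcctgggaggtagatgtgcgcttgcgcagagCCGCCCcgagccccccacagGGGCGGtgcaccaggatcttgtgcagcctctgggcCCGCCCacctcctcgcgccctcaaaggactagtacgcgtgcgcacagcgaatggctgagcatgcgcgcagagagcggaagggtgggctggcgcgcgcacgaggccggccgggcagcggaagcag
Smarcd3: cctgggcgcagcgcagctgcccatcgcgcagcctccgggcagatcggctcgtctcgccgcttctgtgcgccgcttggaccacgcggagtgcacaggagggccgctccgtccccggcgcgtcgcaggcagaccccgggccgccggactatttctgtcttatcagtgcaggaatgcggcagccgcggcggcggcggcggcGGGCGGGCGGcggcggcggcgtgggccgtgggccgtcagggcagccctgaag
Actl6b: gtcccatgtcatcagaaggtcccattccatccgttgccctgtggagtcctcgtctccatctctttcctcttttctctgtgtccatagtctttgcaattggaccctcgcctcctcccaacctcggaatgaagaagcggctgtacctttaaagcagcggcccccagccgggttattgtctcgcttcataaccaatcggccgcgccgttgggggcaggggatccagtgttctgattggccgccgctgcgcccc

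The Smarca4 window held 3 GC boxes and 25 CG dinucleotides, and the Smarcd3 window held 2 GC boxes and 38 CG dinucleotides. The Actl6b window held 0 GC boxes, 15 CG dinucleotides and 3 matches to CCAAT. Of the 10 genes, 8 had a GC box in a window on either strand, which 32.7% of all 32851 windows had, and 1 (Actl6b) had CCAAT, which 33.8% of windows had. CG dinucleotides ranged from 15 (Actl6b) to 40 (Smarcc2) over the windows of the 10 genes, against a median of 6 over all windows. TATAAA and the E-box CACGTG were in 0 of the 10 genes' windows, against 12.4% and 6.02% of all windows. TGACG, the core of the cAMP response element, was in the windows of 2 genes, Smarcd3 and Arid1b, and in 17.8% of all windows. These matches describe letters in a window and not bound sites.

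BAF subunit mRNA in Neat1-/- mice stood close to its WT level. None of the 10 genes passed edgeR's test at an adjusted p under 0.05 (0 of 10, against 0.0709% of all genes tested), and DESeq2 and limma each also called 0 of 10. At an unadjusted p under 0.05, 1 of 10 was higher (Smarcd3, against 4.27% of all genes) and 1 of 10 was lower (Smarca4, against 4.03% of all genes). Log2 fold changes of Neat1-/- over WT ran from -0.07 (Smarca4) to 0.13 (Smarcd3), with 6 positive and 4 negative values and a median of 0.02, against a median of -0.00 over all genes. The 95% intervals of all 10 genes together reached no further than -0.15 and 0.22, and their median width was 0.17 on the log2 scale, against 0.35 over all genes.

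**Figure D1:**
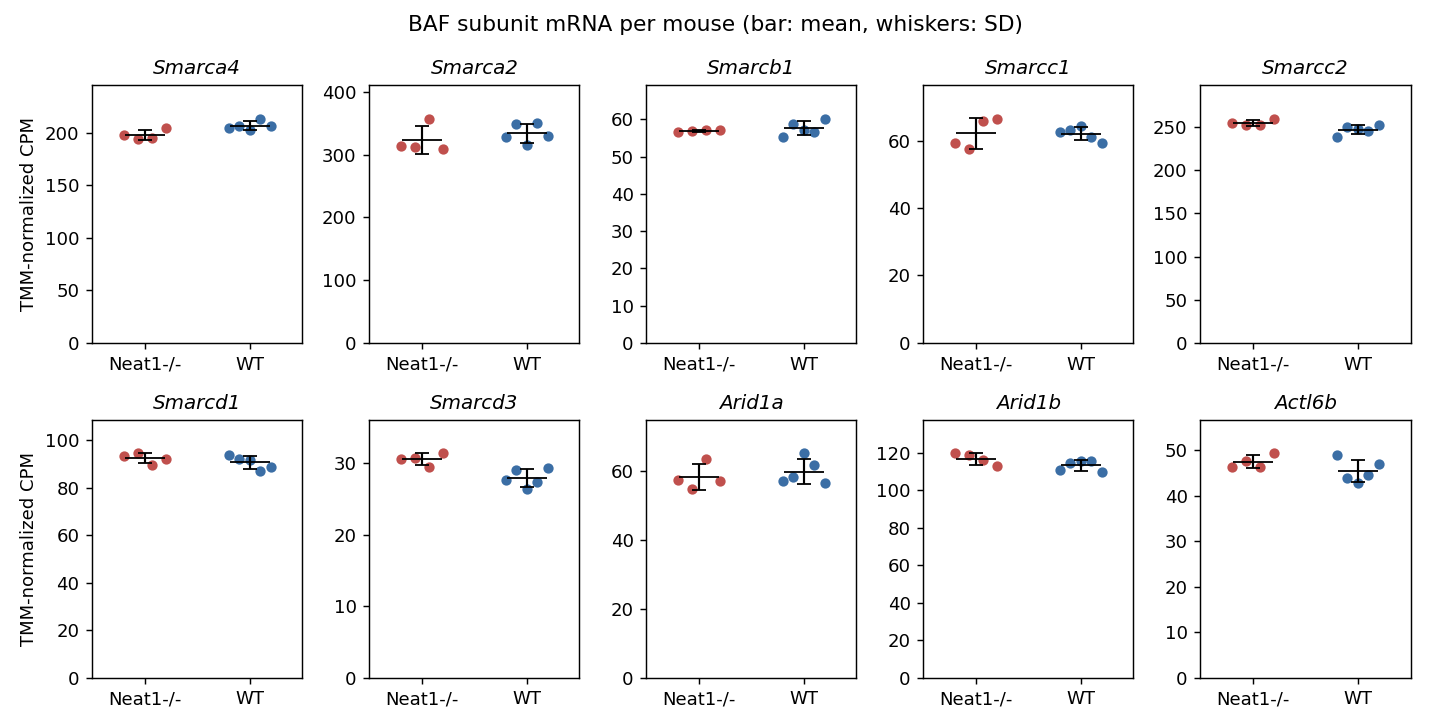
TMM-normalized CPM (vertical axes, from 0) of the 10 BAF subunit genes in each Neat1-/- mouse (red, left of each panel, n = 4) and each WT mouse (blue, right, n = 5), where bars are means and whiskers SD. The Neat1-/- and WT points overlap in every panel but Smarcd3, where the Neat1-/- mice lay between 29.44 and 31.39 CPM and the WT mice between 26.44 and 29.37 CPM.

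The motor subunits came first. Smarca4 (ENSMUSG00000032187, chr9:21616169-21704230, plus strand) encodes BRG1. Its level was 197.6, 193.9, 194.9 and 204.7 CPM in Neat1-/- mice, against 205.2, 207.1, 202.7, 213.7 and 206.6 CPM in WT mice. Neat1-/- replicates 1, 3 and 4 lay below every WT mouse, and Neat1-/- replicate 5 lay inside the WT range, so the groups overlapped. The means were 197.8 ± 4.87 CPM in Neat1-/- mice (SD, n = 4) and 207.1 ± 4.09 CPM in WT mice (SD, n = 5).

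The Smarca4 log2 fold change was -0.07 ± 0.03 (SE) with a 95% interval of -0.13 to 0.00 (edgeR, adjusted p = 0.601). Its unadjusted p lay just under 0.05 and ranked number 1638 among the 19753 genes. The value was negative under all 21 alternatives, and 10 of them gave an unadjusted p under 0.05. The study named Smarca4 as lower from these same mice, so its direction here is no independent evidence.

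Markers of the OLG lineage are given beside it, read against the 4.03% of all genes lower at an unadjusted p under 0.05. Of 10 mature OLG markers, 5 (Mobp, Mag, Mal, Opalin and Ugt8a) were lower in Neat1-/- mice at an unadjusted p under 0.05 and 0 passed the adjusted threshold, and their summed level was 1968 to 3005 CPM in Neat1-/- mice and 2307 to 3634 CPM in WT mice. Of 8 OLG progenitor markers, 3 (Olig1, Olig2 and Gpr17) were lower at an unadjusted p under 0.05 and 0 passed the adjusted threshold, and their sum was 213 to 230 CPM in Neat1-/- mice and 229 to 259 CPM in WT mice. Both sums overlapped between genotypes, the progenitor sums only between 228.9 and 230.4 CPM. All Neat1-/- mice were below all WT mice for 2 of 8 progenitor markers (Olig1 and Olig2), against 1.01% of all genes. This held for 0 of 10 mature markers. Olig2, the partner of BRG1 named above, averaged 11.4 CPM in Neat1-/- mice and 15.1 CPM in WT mice (edgeR, log2 fold change -0.40, adjusted p = 0.264). The most abundant markers of these lists, Mbp (myelin basic protein) and Pdgfra (a growth factor receptor), averaged 839 and 76.3 CPM in Neat1-/- mice and 946 and 76.7 CPM in WT mice. No marker of either list was at 0 in any library. The part of these markers in the Smarca4 value was not tested. Of the other marker lists, edgeR called 0 genes. At an unadjusted p under 0.05, 1 of 8 neuron markers (Nefl) and 1 of 5 neural progenitor markers tested (Mki67) were lower. Higher were 1 of 5 microglia (C1qa), 1 of 5 endothelial (Slco1a4) and 1 of 5 meningeal fibroblast markers (Slc47a1), against 4.27% of all genes. Astrocyte and choroid plexus markers gave 0. Log2 fold changes were negative for 10 of 10 mature OLG markers (median -0.27) and 8 of 8 OLG progenitor markers (median -0.12). They were also negative for 5 of 5 choroid plexus and ependymal and 4 of 5 meningeal fibroblast markers, against 50.1% of all genes. Positive values came from 7 of 8 neuron, 4 of 6 astrocyte, 3 of 5 microglia, 3 of 5 endothelial and 2 of 5 neural progenitor markers.

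Smarca2 (ENSMUSG00000024921, chr19:26605050-26778322, plus strand) encodes BRM, the alternative motor, and lies on the chromosome of Neat1 at a distance of 20.8 Mb. Its level was 314, 312, 357 and 309 CPM in Neat1-/- mice, against 328, 348, 315, 350 and 329 CPM in WT mice. Neat1-/- replicate 4 was the highest of the 9 mice and the other 3 Neat1-/- mice were the lowest 3. The log2 fold change was -0.05 with an interval of -0.15 to 0.05 (edgeR, adjusted p = 0.774). Without Neat1-/- replicate 4 it was -0.10, at an unadjusted p under 0.05 (edgeR, adjusted p = 0.714). It was -0.02 without WT replicate 2, and also -0.02 with age as a factor (adjusted p = 0.903 and 0.893).

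Smarcb1 (ENSMUSG00000000902, chr10:75896769-75921617, minus strand) encodes BAF47, a core subunit that contacts the nucleosome. Its level was 56.6, 56.9, 57.1 and 57.2 CPM in Neat1-/- mice, against 55.2, 58.8, 57.2, 56.7 and 60.2 CPM in WT mice. The Neat1-/- values all lay within the WT range. The log2 fold change was -0.02 with an interval of -0.09 to 0.06 (edgeR, adjusted p = 0.903).

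The scaffold paralogs BAF155 and BAF170, which pair with each other or with themselves at the base of the complex, are encoded by Smarcc1 and Smarcc2. Smarcc1 (ENSMUSG00000032481, chr9:110117708-110240178, plus strand) was at 59.2, 57.4, 65.7 and 66.5 CPM in Neat1-/- mice, against 62.4, 63.0, 64.3, 61.2 and 59.4 CPM in WT mice. The Neat1-/- values lay on both sides of the WT range, and the log2 fold change was 0.00 with an interval of -0.10 to 0.10 (edgeR, adjusted p = 0.988). Smarcc2 (ENSMUSG00000025369, chr10:128459248-128490482, plus strand) was at 255, 252, 252 and 260 CPM in Neat1-/- mice, against 238, 251, 248, 246 and 252 CPM in WT mice. Only WT replicate 5 reached the Neat1-/- values, and the log2 fold change was 0.05 with an interval of -0.02 to 0.11 (edgeR, adjusted p = 0.673).

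The D subunits BAF60A and BAF60C link the complex to transcription factors. Smarcd1 (ENSMUSG00000023018, chr15:99702129-99713991, plus strand) was at 93.5, 94.5, 89.6 and 92.0 CPM in Neat1-/- mice, against 93.8, 92.2, 91.6, 87.2 and 88.6 CPM in WT mice. The groups overlapped over most of their range, with a log2 fold change of 0.03 and an interval of -0.04 to 0.09 (edgeR, adjusted p = 0.808).

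Smarcd3 (ENSMUSG00000028949, chr5:24590818-24624411, minus strand), which encodes BAF60C, was at 30.63, 30.78, 29.44 and 31.39 CPM in Neat1-/- mice, against 27.61, 29.05, 26.44, 27.35 and 29.37 CPM in WT mice. Every Neat1-/- mouse was above every WT mouse, by as little as the gap between Neat1-/- replicate 4 and WT replicate 5, and Smarcd3 was the 1 gene of 10 with all Neat1-/- mice above all WT mice, against 1.66% of all genes. The Neat1-/- mice were all below the WT mice for 0 of 10 genes, against 1.01% of all genes. The means were 30.6 ± 0.814 CPM in Neat1-/- mice (SD, n = 4) and 28.0 ± 1.22 CPM in WT mice (SD, n = 5), and the fitted level was 1.09-fold that of WT (95% interval 1.02 to 1.17).

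On the log2 scale the Smarcd3 change was 0.13 ± 0.04 (SE), at an unadjusted p under 0.05 (edgeR, adjusted p = 0.543). The lowest WT values came from replicates 3 and 4, the libraries that stood apart. Without both of them the log2 fold change was 0.09 and no longer at an unadjusted p under 0.05 (edgeR, adjusted p = 0.726). The other 20 of 21 alternatives, all from these same mice, gave a positive value at an unadjusted p under 0.05. The gene shares 48.2% of its exon bases with Chpf2, which lies on the other strand, and the sources used here do not state whether counting used strand. Chpf2, which encodes a chondroitin polymerizing factor, had a log2 fold change of 0.08, also at an unadjusted p under 0.05 and not past the adjusted threshold (edgeR).

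The ARID subunits BAF250A and BAF250B define the canonical form of the complex and exclude each other from it. ARID1B mutation is a known cause of Coffin-Siris syndrome in humans. Arid1a (ENSMUSG00000007880, chr4:133679008-133756769, minus strand) was at 57.5, 54.7, 63.6 and 57.0 CPM in Neat1-/- mice, against 57.1, 58.3, 65.2, 61.8 and 56.6 CPM in WT mice. WT replicates 3 and 4 and Neat1-/- replicate 4 were highest, and the log2 fold change of -0.04 (interval -0.15 to 0.07, edgeR, adjusted p = 0.836) was 0.01 without WT replicates 3 and 4. Arid1b (ENSMUSG00000069729, chr17:4994332-5347656, plus strand) was at 119.6, 118.5, 115.8 and 112.8 CPM in Neat1-/- mice, against 110.8, 114.7, 115.5, 115.4 and 109.6 CPM in WT mice. Its log2 fold change was 0.04 with an interval of -0.03 to 0.11 (edgeR, adjusted p = 0.718), and Neat1-/- replicate 5 lay inside the WT range.

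Actl6b (ENSMUSG00000029712, chr5:137553517-137569582, plus strand) encodes BAF53B, the actin-related subunit of postmitotic neurons, which is known to act in dendrite growth and memory. Its level was 46.3, 47.7, 46.2 and 49.3 CPM in Neat1-/- mice, against 48.9, 44.0, 42.7, 44.5 and 46.9 CPM in WT mice. The groups overlapped, with WT replicate 1 second to Neat1-/- replicate 5. The log2 fold change was 0.06 with an interval of -0.03 to 0.16 (edgeR, adjusted p = 0.703).

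**Figure D2:**
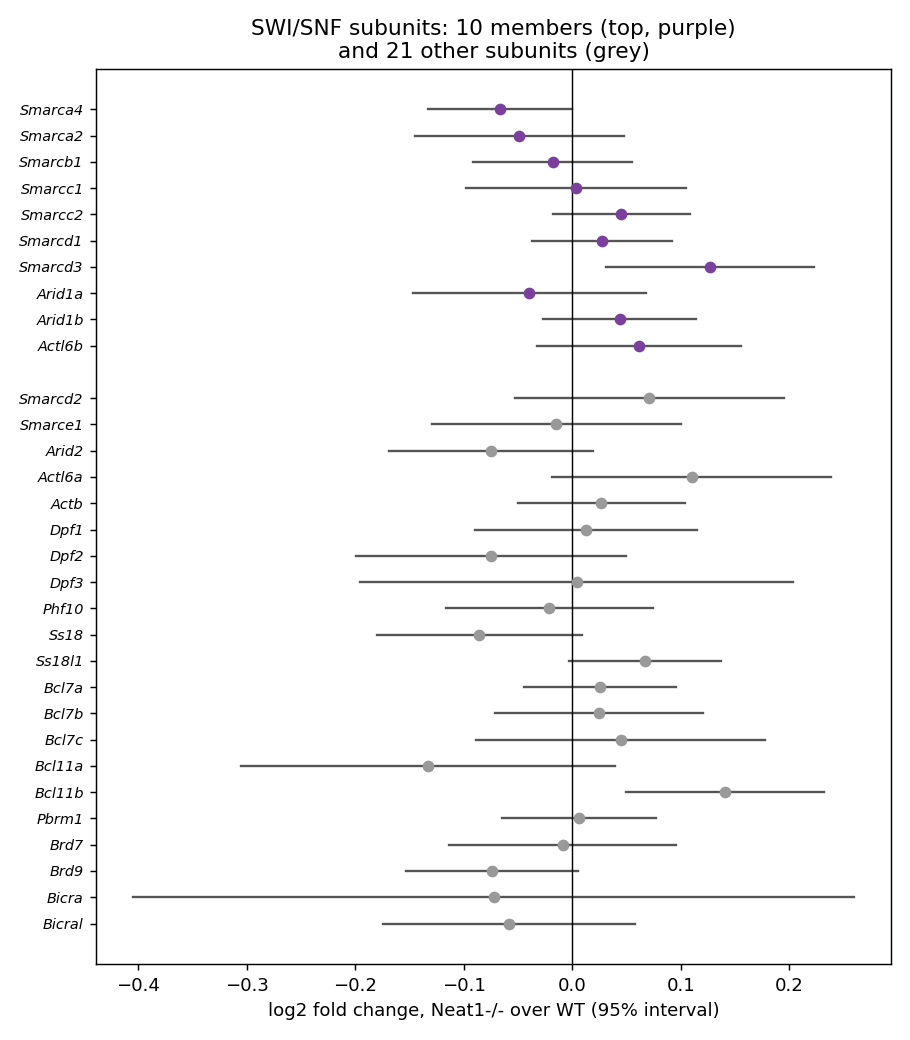
Log2 fold change of Neat1-/- over WT (horizontal axis, points) with its 95% interval (lines) from edgeR for the 10 BAF subunit genes (purple, top) and 21 other SWI/SNF subunit genes (grey, below). All intervals of the 10 genes lie between -0.15 and 0.22, and only those of Smarcd3 and Bcl11b lie clear of 0, while that of Smarca4 ends at 0.00.

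Seen by mouse, the 10 genes did not shift as a block. The median deviation of the 10 genes from their 9-library means lay between -0.02 (WT replicate 1) and 0.01 (Neat1-/- replicates 4 and 5) on the log2 scale. Neat1-/- replicate 5 was the highest mouse for 4 of the 10 genes, and Neat1-/- replicate 3 was the lowest for 3. Over all 9 libraries the coefficient of variation ran from 2.43% (Smarcc2) and 2.46% (Smarcb1) to 5.81% (Smarcd3) and 6.02% (Arid1a).

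**Figure D3:**
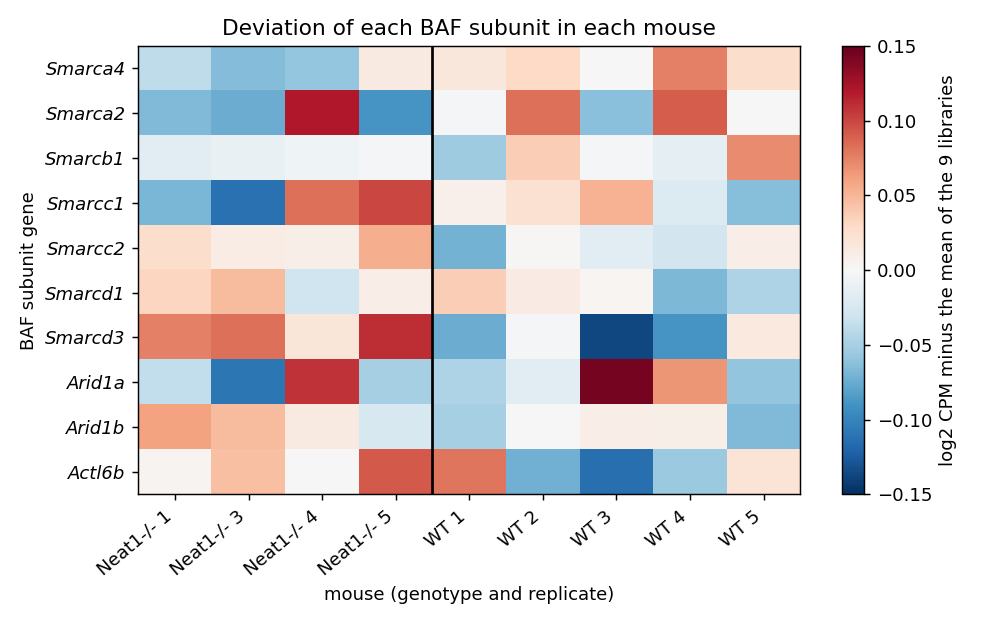
Deviation of log2 CPM from the 9-library mean (colour, red above and blue below) of each BAF subunit gene (rows) in each mouse (columns, Neat1-/- left of the line and WT right). Smarca4 is below its mean in Neat1-/- replicates 1, 3 and 4, Smarcd3 is lowest in WT replicate 3, and Arid1a is highest there.

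The levels of the 10 genes could be ordered only per length, and the order depended on which length was used. Per kb of all annotated exons, the mean of the 9 mice was highest for Smarcc2 (45.1 CPM per kb), followed by Smarca4 (31.3), Smarca2 (23.1), Smarcd1 (22.7), Actl6b (10.8), Arid1b (9.11), Smarcc1 (7.93), Smarcb1 (7.23), Smarcd3 (5.69) and Arid1a (5.15 CPM per kb). On this scale the ranges over the 9 mice overlapped for the neighbours Smarca2 and Smarcd1, Smarcc1 and Smarcb1, and Smarcd3 and Arid1a, and for no other neighbours.

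Smarca2 has 46 annotated transcripts and Smarca4 has 4, and the exon union of Smarca2 is 14.3 kb against 5.92 kb for its principal transcript (the main isoform named by APPRIS). Per kb of principal transcript, an alternative chosen after seeing the data, Smarca2 (55.6 CPM per kb) and Smarcc2 (55.2) came first with overlapping ranges. They were followed by Smarcb1 (34.5), Smarca4 (31.9), Actl6b (29.1), Smarcd1 (27.6), Smarcd3 (16.8), Smarcc1 (10.9), Arid1b (10.1) and Arid1a (7.23 CPM per kb). The ranges of Smarcb1 and Smarca4, of Smarca4 and Actl6b, of Actl6b and Smarcd1, and of Smarcc1 and Arid1b overlapped on this scale. Smarcb1 moved most in rank, by its short principal transcript of 1.66 kb within an exon union of 7.93 kb. Arid1a was last on both scales.

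**Figure D4:**
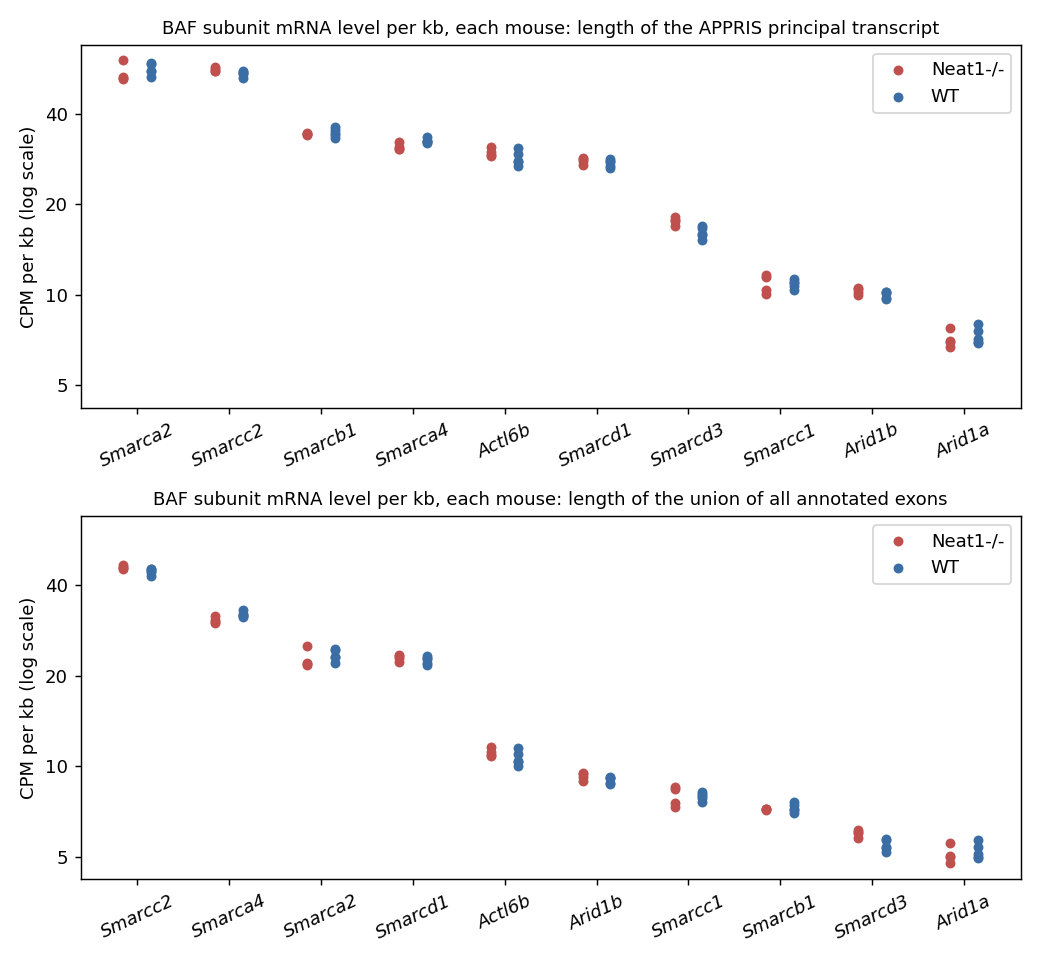
Level of each BAF subunit gene in CPM per kb (vertical axes, log scale) in each Neat1-/- mouse (red, left of each gene) and WT mouse (blue, right), by the length of the principal transcript (top) and of the union of all exons (bottom). Genes run from highest to lowest mean, and Smarca2 is first by principal transcript (55.6 CPM per kb) and the third by exon union (23.1 CPM per kb).

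Paralogs that share a position were then compared within each mouse, as a log2 ratio of CPM per kb of exon union. Smarca2 over Smarca4 averaged -0.43 ± 0.12 in Neat1-/- mice and -0.45 ± 0.04 in WT mice. Smarcc2 over Smarcc1 averaged 2.53 ± 0.10 in Neat1-/- mice and 2.49 ± 0.06 in WT mice. Arid1b over Arid1a averaged 0.87 ± 0.11 in Neat1-/- mice and 0.79 ± 0.06 in WT mice (SD, n = 4 and n = 5 throughout). In these 3 pairs the difference between genotypes was smaller than the SD of the Neat1-/- mice. For Arid1b over Arid1a it (0.083) was larger than the SD of the WT mice (0.061). An SD of single mice does not measure the uncertainty of a difference, and the ratios were not tested.

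Smarcd3 over Smarcd1 was -1.96, -1.97, -1.95 and -1.90 in Neat1-/- mice, against -2.11, -2.01, -2.14, -2.02 and -1.94 in WT mice. The means were -1.94 ± 0.03 in Neat1-/- mice and -2.04 ± 0.08 in WT mice, and WT replicate 5 lay inside the Neat1-/- range. Actl6b over Actl6a, the neuronal over the progenitor actin-related subunit, averaged 1.80 ± 0.06 in Neat1-/- mice and 1.85 ± 0.13 in WT mice. Leaving out WT replicates 3 and 4 moved this difference (Neat1-/- minus WT) from -0.05 to -0.12. It made the difference of each other pair smaller, as for Smarcd3 over Smarcd1 (from 0.10 to 0.08). All 5 pairs overlapped between genotypes. The length used shifts every mouse alike and so leaves these differences as they are, but it sets the ratio itself. Smarca2 stood at 0.736 of Smarca4 per kb of exon union and at 1.74 of it per kb of principal transcript. The Smarcc2 level was 5.69-fold and 5.09-fold that of Smarcc1 on these scales, and the Actl6b level was 3.55-fold and 4.93-fold that of Actl6a.

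**Figure D5:**
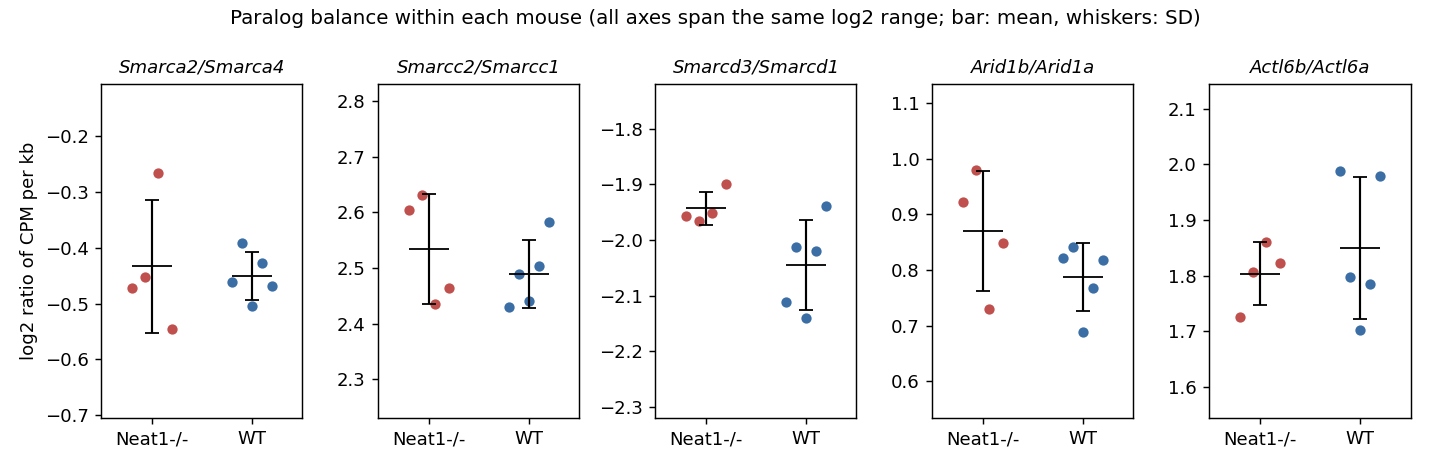
Log2 ratio of CPM per kb of exon union between paralogs (vertical axes, each spanning the same number of log2 units) in each Neat1-/- mouse (red, left) and WT mouse (blue, right), with bars for means and whiskers for SD. Points of the 2 genotypes overlap in all 5 panels, and the Smarcd3 over Smarcd1 means are -1.94 in Neat1-/- mice and -2.04 in WT mice.

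The 21 other subunit genes likewise held no call. edgeR called 0 of 21 at an adjusted p under 0.05, as did DESeq2 and limma, against 0.0709% of all genes by edgeR. At an unadjusted p under 0.05 edgeR gave 1 of 21 higher (Bcl11b, against 4.27% of all genes) and 0 lower (against 4.03%). Their median log2 fold change was 0.00, from -0.13 (Bcl11a) to 0.14 (Bcl11b). Bcl11b encodes CTIP2, a zinc-finger subunit that marks deep-layer cortical projection neurons. It was at 79.0, 79.4, 77.7 and 81.1 CPM in Neat1-/- mice, against 75.5, 73.8, 66.4, 67.9 and 75.9 CPM in WT mice. Bcl11b was the 1 gene of 21 with all Neat1-/- mice above all WT mice, against 1.66% of all genes, and WT replicates 3 and 4 were again the lowest. The log2 fold change was 0.14 with an interval of 0.05 to 0.23 (edgeR, adjusted p = 0.474), and 0.08 without those replicates (adjusted p = 0.654). It was positive at an unadjusted p under 0.05 in 21 of 21 alternatives, all from these same mice, and called in 0.

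The subunits exchanged between progenitors and neurons were all detected. Actl6a averaged 12.4 ± 0.536 CPM in Neat1-/- mice and 11.5 ± 0.446 CPM in WT mice (edgeR, log2 fold change 0.11, adjusted p = 0.642). It was the only subunit gene called under any alternative, once, with limma on the deposited log2 values (adjusted p = 0.0450). In the deposited values every Neat1-/- mouse lay above every WT mouse for Actl6a, while in CPM the groups overlapped. The limma fit on them had no age term and called more genes in all than edgeR did, as given below. For Bcl11a, WT replicates 3 and 4 were the highest in CPM but lay among the other mice in the deposited values. Whether the deposited values were already adjusted for age or other covariates was not tested, nor was the cause of the Actl6a call. Actl6a shares 11.6% of its exon bases with Mrpl47 on the other strand, and use of strand in counting is not stated. Ss18, of the progenitor form, had a log2 fold change of -0.09 (edgeR, adjusted p = 0.630), and its neuronal paralog Ss18l1 had 0.07 (adjusted p = 0.613). Phf10, also of the progenitor form, had -0.02. The neuronal Dpf1 and Dpf3 had 0.01 and 0.00. Per kb of exon union Ss18l1 (18.0 CPM per kb) was above Ss18 (2.75 CPM per kb), while Phf10 (13.1 CPM per kb) was above Dpf1 (8.20) and Dpf3 (1.01 CPM per kb), and the same orders held per kb of principal transcript. Neural progenitor markers summed to 85.5 to 93.2 CPM in Neat1-/- mice and 88.7 to 104 CPM in WT mice.

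Dpf2 is the subunit gene nearest to Neat1, at 0.051 Mb on chromosome 19, and encodes a PHD-finger subunit of BAF. It was at 27.5, 26.5, 28.2 and 27.5 CPM in Neat1-/- mice, against 30.1, 29.3, 25.2, 31.2 and 28.6 CPM in WT mice. Every Neat1-/- mouse was below every WT mouse but replicate 3, which was the lowest of all. The log2 fold change was -0.07 with an interval of -0.20 to 0.05 (edgeR, adjusted p = 0.730), and over single libraries left out it ranged from -0.12 (without WT replicate 3) to -0.05 (without WT replicate 4). With age as a factor it was -0.03.

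Other chromatin complexes were read beside BAF. edgeR called 0 of 11 ISWI, 0 of 20 CHD and NuRD, 0 of 18 INO80 and SRCAP and 0 of 9 polycomb repressive complex genes at an adjusted p under 0.05. At an unadjusted p under 0.05 the ISWI list had 3 higher (Smarca1, Rsf1 and Pole3) and 1 lower (Cecr2). The polycomb list had 1 higher (Phf1), and the other lists had 0. Of all genes tested, 0.0709% passed the adjusted threshold, and 4.27% were higher and 4.03% lower at the unadjusted one. Smarca1, an ISWI ATPase of neurons also called SNF2L, was at 118.2, 118.0, 118.0 and 112.3 CPM in Neat1-/- mice, against 105.6, 111.4, 105.9, 109.5 and 111.7 CPM in WT mice. All Neat1-/- mice were above all WT mice, which held for 2 of 11 ISWI genes and for 1.66% of all genes. The Smarca1 log2 fold change was 0.10 (edgeR, adjusted p = 0.531). In the remaining lists the smallest p belonged to Phf1, which recognizes a histone methyl mark and had a log2 fold change of 0.14 (adjusted p = 0.548), to Srcap, an ATPase that deposits a histone variant, with -0.13 (adjusted p = 0.616), and to Mta3, a NuRD subunit, with -0.07 (adjusted p = 0.649).

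Age, the other condition of the design, gave no call for the BAF subunit genes. From 2 to 4 months, 0 of 10 had a slope at an adjusted p under 0.05 (0% of all genes did) and 0 of 10 at an unadjusted p under 0.05, against 5.98% of all genes. Slopes ran from -0.03 (Smarcd1) to 0.04 (Arid1a) log2 units per month, and the smallest adjusted p by edgeR was 0.830.

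Among the genes whose pattern over the 9 mice was most like that of Smarca4 were Osbpl8 and Pcx. Their log2 CPM, each centred on its own mean, differed from that of Smarca4 by a root mean square of 0.0203 and 0.0210, against a median of 0.128 over all genes. Their log2 fold changes were -0.06 each, and neither passed edgeR's test (adjusted p = 0.650 and 0.654). The choice used all 9 mice and so the genotype difference too, and log2 fold changes near that of Smarca4 follow from it.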

How the data were processed

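RNA of frontal cortex from 4 Neat1-/- and 5 WT mice was sequenced after ribosomal RNA depletion. The authors deposited counts per Ensembl gene, 43629 genes with 0 entries that name no gene, and normalized log2 expression values for 13456 genes. The submitters' processing notes name STAR 2.5.0, HTSeq 0.8.0, limma and mm10, while the supplementary methods name TopHat and Bowtie for alignment; whether strand was used in counting is not given in the sources used here. All count columns mapped to a sample.

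Counts were used as deposited and tested with edgeR 4.0.16 (filterByExpr by genotype, TMM factors, quasi-likelihood F-test on age in months and genotype, R 4.3.3), with Benjamini-Hochberg adjustment over all 19753 genes and a threshold of 0.05. Standard errors and 95% intervals came from the same fit. The samples are labelled as separate mice. Levels are TMM-normalized CPM. Depth was 51276067 to 64648856 counts per library, and no pair of libraries was a duplicate. The scripts were tested on simulated data. Names, positions and lengths came from GENCODE vM21 (42548 IDs named), and start-site windows from RefSeq (all 10 genes matched). Per-kb levels divide by the union of annotated exons.

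The 10 genes, the lists of other subunits, other complexes and cell markers, and the tests were chosen with earlier results of these data known. Named were the 10 genes, other subunits at an unadjusted p under 0.05 or exchanged between progenitors and neurons, the gene with the smallest p in each other complex, the most abundant gene of the marker lists described, and the 3 genes most like Smarca4, of which 1 is not reported here. Other genes named (the remaining ISWI genes, the other markers, Bcl11a and Chpf2) were chosen after their values were seen. Alternatives were DESeq2 1.42.0, limma 3.58.1 (voomWithQualityWeights, and limma on the deposited log2 values), other scalings and filters, no age term or age as a factor, a replicate block, and libraries left out.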

Additional observations from a re-analysis of the deposited data

Results flagged for a closer look

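Of 46 groups of 4 or 5 mice checked for a mouse far from the rest, 1 was flagged, and chance flags about 1 in 20 groups, or 2.3 of 46. Smarca2 in Neat1-/- replicate 4 was at 357 CPM, while the other 3 Neat1-/- mice lay between 309 and 314 CPM. The gap made up 0.899 of the range of the group. The cause was not tested.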

How the results depend on the processing

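The 10 BAF subunit genes gave 0 calls under all 21 alternatives, and 8 of the 10 kept their direction in every one. All genes called numbered 14, against 75 with DESeq2, 22 with limma, 76 with no low-count filter, 183 with the deposited log2 values, and 8 to 30 with each library left out. The BAF subunit genes lower at an unadjusted p under 0.05 (1, Smarca4) came to 0 with no filter, with age as a factor, with the replicate block (with and without age) and without WT replicates 3 and 4, and to 0 to 1 with each library left out. Those higher (1, Smarcd3) came to 0 without WT replicates 3 and 4 and 2 with the deposited values. Of the 21 other subunits, 1 (Actl6a) was called with the deposited values.

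Among the 23 genes followed through the alternatives, 5 changed sign in at least 1. Smarcc1 was -0.007 with limma, -0.0074 by library size alone, -0.0074 with a stricter filter and -0.0137 with the replicate block and age, and -0.0468 to 0.0378 with each library left out. Arid1a was 0.0089 without WT replicates 3 and 4 and 0.0147 with the deposited values. Dpf1 was -0.0057 with limma, -0.0195 without WT replicates 3 and 4, -0.0053 with the deposited values, and -0.0221 to 0.0352 with each library left out. Dpf3 was -0.0066 by library size alone, -0.0067 with a stricter filter, -0.0248 with the replicate block and -0.0164 with block and age, and -0.0308 to 0.0255 with each library left out. Phf10 was 0.0049 with block and age, and -0.0513 to 0.0066 with each library left out. The causes were not tested.

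Deviations of same-numbered mice correlated at 0.044, -0.045, 0.137 and -0.077 across genes (replicates 1, 3, 4 and 5). Only for replicate 4 was the WT mouse with the highest correlation the same-numbered one. So few values cannot settle whether the mice were paired, and the replicate block left BAF subunit calls at 0. Per kb levels depended on the transcript length used, as given above. Differences smaller than the intervals could not be detected with 4 and 5 mice, and p-values near 0.05 without adjustment are common among 19753 genes.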
